A study of Homo sapiens with 6 samples.

Results

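The proteasome is the protein complex that degrades ubiquitin-tagged proteins. Its transcripts were taken as every gene whose symbol is PSM followed by a letter from A to G and a number. That gave 47 genes out of 30676 in the table. They comprise 15 genes of the 20S core, 20 of the 19S regulator and its chaperones, 3 inducible subunits of the immunoproteasome, 5 activators and inhibitors and 4 assembly factors. RNA was sequenced from cells labelled as HCT116, an established human colorectal cancer line labelled wild type. One group was treated with GIA, a genistein isoflavonoid alkaloid, at 10 µM for 24 hours (3 libraries). The other group received the vehicle DMSO at 0.1% for 24 hours (3 libraries). Both groups were kept at 1% oxygen, so neither the effect of low oxygen nor that of GIA at normal oxygen was measured, and a DMSO content is labelled for the controls only. Whether libraries of a group are separate cultures is not labelled. Each p-value thus sets a group difference against the spread between libraries, and that spread may be technical.

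The 20S core is a barrel of stacked rings, with alpha subunits (PSMA) forming the outer rings and beta subunits (PSMB) the inner rings. PSMB5, PSMB6 and PSMB7 carry the constitutive peptidase sites, and interferon-induced PSMB8, PSMB9 and PSMB10 take their places in the immunoproteasome, which favours peptides for antigen presentation. The 19S regulator caps the core, and its ATPases (PSMC) unfold substrates. Of the PSMD genes, PSMD4 encodes a ubiquitin receptor and PSMD14 a deubiquitinase. The rest encode scaffold or lid subunits or chaperones of base assembly. PSME genes encode alternative activators, PSMF1 encodes a regulator first described as an inhibitor, and the PSMG chaperones guide assembly of the core. When proteasome activity is limiting, the transcription factor NFE2L1 raises the transcription of many proteasome genes together.

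Library totals were 64804849 to 67835059 estimated counts with GIA and 55725249 to 63542466 with DMSO. Keratins of simple epithelium were high: KRT8 averaged 144 ± 8.90 FPKM with GIA and 148 ± 1.67 with DMSO (SD, n = 3 each). FPKM is the number of fragments per kilobase of gene model, scaled to library size. Other markers went against the labelled colorectal epithelium. EPCAM averaged 0.249 ± 0.115 FPKM with GIA and 0.255 ± 0.0519 with DMSO, and the E-cadherin gene CDH1 averaged 0.0303 ± 0.0144 with GIA and 0.0422 ± 0.00592 with DMSO. VIL1 and KRT20, markers of intestinal epithelium, had group means of at most 0.0146 FPKM. Of 5 fibroblast markers looked for, 4 had a row and were tested, and COL1A2 had none. The summed FPKM of the 4 was 20.2 to 28.0 with GIA and 20.2 to 21.7 with DMSO. Decorin (DCN) was the highest and averaged 13.5 ± 2.40 FPKM with GIA and 12.2 ± 0.479 with DMSO. The others were lower: PDGFRB averaged 4.46 FPKM with GIA and 3.98 with DMSO, ACTA2 2.83 and 2.57, and COL1A1 2.72 and 2.32. The leukocyte marker PTPRC, which matters here because leukocytes use the immunoproteasome as their main form, averaged 0.00264 FPKM with GIA and 0.00538 with DMSO. Of the 4 leukocyte markers with a row only CD68, which other cells also express, was tested, and their summed FPKM was 17.04 to 23.06 with GIA and 17.9 to 24.7 with DMSO. The summed FPKM of the 3 endothelial markers was at most 0.123. The cells are therefore named below by their label, which these markers do not bear out. The fibroblast markers had positive log2 fold changes in 4 of 4 cases, none past the test, and their part in the results below was not tested.

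Every proteasome class was transcribed, and subunits that sit together in one particle differed several-fold in FPKM. The beta subunit PSMB4 was highest of all 47, with 146, 146 and 145 FPKM in the GIA libraries and 147, 145 and 146 in the DMSO libraries. The libraries differed little at PSMB4, whose coefficient of variation was 0.401% with GIA and 0.609% with DMSO. PSMB5, the chymotrypsin-like catalytic subunit, was second in the core with 109, 107 and 104 FPKM with GIA and 107, 115 and 110 with DMSO, and these ranges overlapped. At the low end of the core stood 2 alpha subunits. PSMA5 had 21.03, 19.81 and 22.38 FPKM with GIA and 20.79, 21.999 and 21.14 with DMSO. PSMA6 had 17.7, 20.6 and 18.9 FPKM with GIA and 20.1, 18.7 and 20.7 with DMSO. PSMA5 and PSMA6 overlapped each other within the GIA group and both lay far below PSMB4: the highest mean in the core was 7.61 times the lowest with GIA and 7.38 times with DMSO. The thymic catalytic subunit PSMB11 was listed at 0 in 5 libraries and at 4 estimated counts in GIA library 2, and it was not tested.

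The 19S regulator spread more widely. PSMD2, a large scaffold subunit of the base, was highest with 114, 108 and 113 FPKM with GIA and 113, 114 and 114 with DMSO. PSMD4, a ubiquitin receptor, followed with 102, 98.7 and 104 FPKM with GIA and 103, 105 and 104 with DMSO. For both genes the lowest library was GIA library 2, and the groups overlapped. The 6 ATPases, which form 1 ring together, had means from 11.7 FPKM (PSMC6) to 67.4 (PSMC3) with GIA and from 12.2 to 70.7 with DMSO. By FPKM the lowest were the lid subunit PSMD6 and PSMD9, a chaperone of base assembly. PSMD6 had 5.32, 5.50 and 5.37 FPKM with GIA and 5.39, 5.38 and 5.64 with DMSO. PSMD9 had 4.14, 4.03 and 4.21 FPKM with GIA and 4.16, 4.55 and 4.09 with DMSO. Again the groups overlapped.

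**Figure D1:**
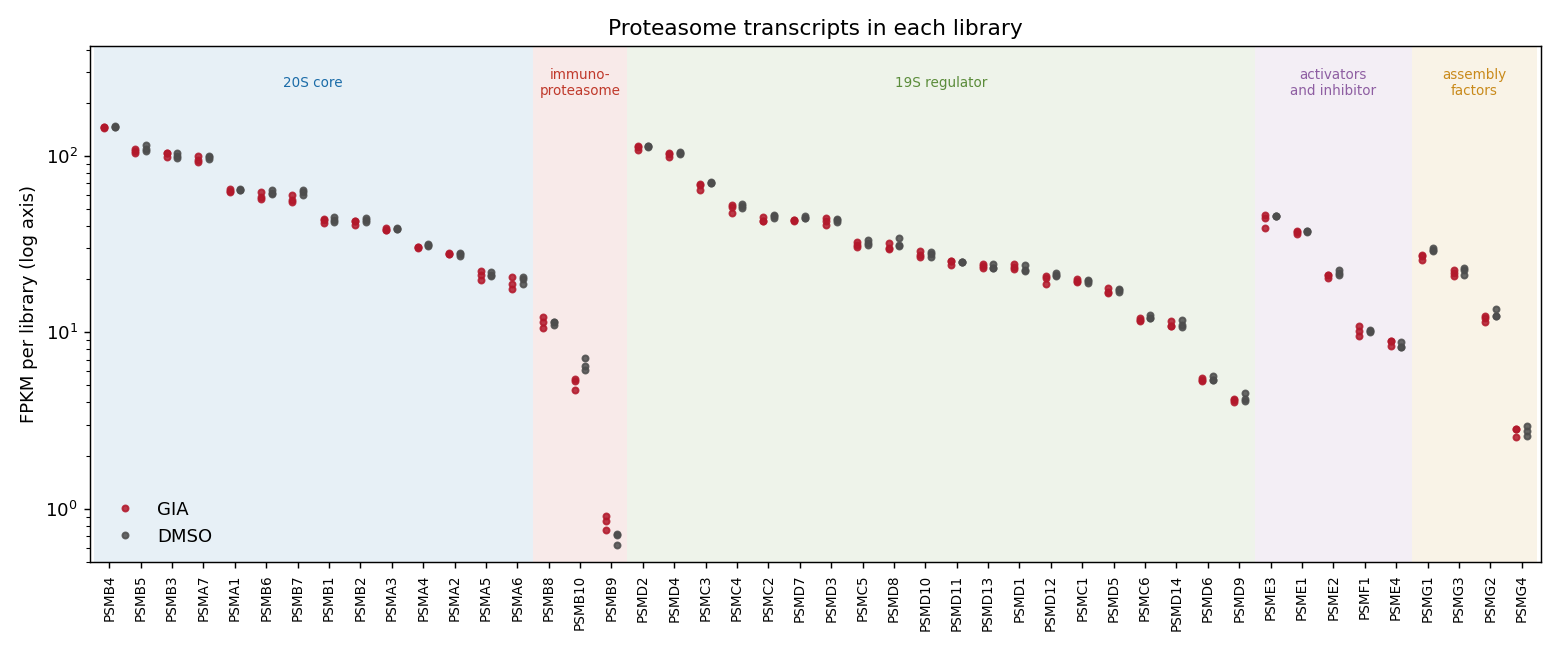
FPKM of the 46 tested proteasome genes in each library, on a log axis, grouped by class and ordered by mean within a class; each point is 1 library, GIA in red and left, DMSO in grey and right. Within a class the genes span several-fold, from 19.1 to 145 FPKM in the 20S core with GIA, while the points of a gene lie close together, and PSMB10 shows the clearest gap between groups.

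Part of this order depends on the length by which a gene was divided. The length implied by count and FPKM was 1278.89 bases for PSMB3 and 11416.9 for PSMG4. It tracked the length of all annotated exons of a gene merged (GENCODE release 29, GRCh38): the ratio of the lengths was within 10% of its median for 40 of 46 genes. The implied length was 1.09 to 13.6 times the length of the gene's principal transcript, with a median of 1.93. Dividing library-scaled counts by the principal transcript instead moved 4 genes by more than 10 ranks. PSMA6 stood at rank 34 by FPKM and rank 10 per principal transcript, and PSMG4 at 45 and 34. The assembly factor PSMG1 stood at 23 and 37, and the ATPase PSMC2 at 12 and 25. The lid subunit PSMD6 stood at 43 and 33, and per principal transcript PSMD5 (rank 41) was below it. Among the ATPases PSMC6 was lowest by FPKM but PSMC1 per principal transcript. PSMC1 had 29.6 library-scaled counts (CPM) per kilobase with GIA and 29.4 with DMSO, against 43.9 and 45.8 for PSMC6. PSMB4 ranked first on both scales. The core was still uneven per principal transcript: its highest gene was 9.88 times its lowest with GIA and 9.83 times with DMSO. Spearman's rho between the ranks on the FPKM and principal-transcript scales was 0.87 over 46 genes, which share the same counts. Comparisons between GIA and DMSO within a gene are not touched by the length.

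**Figure D2:**
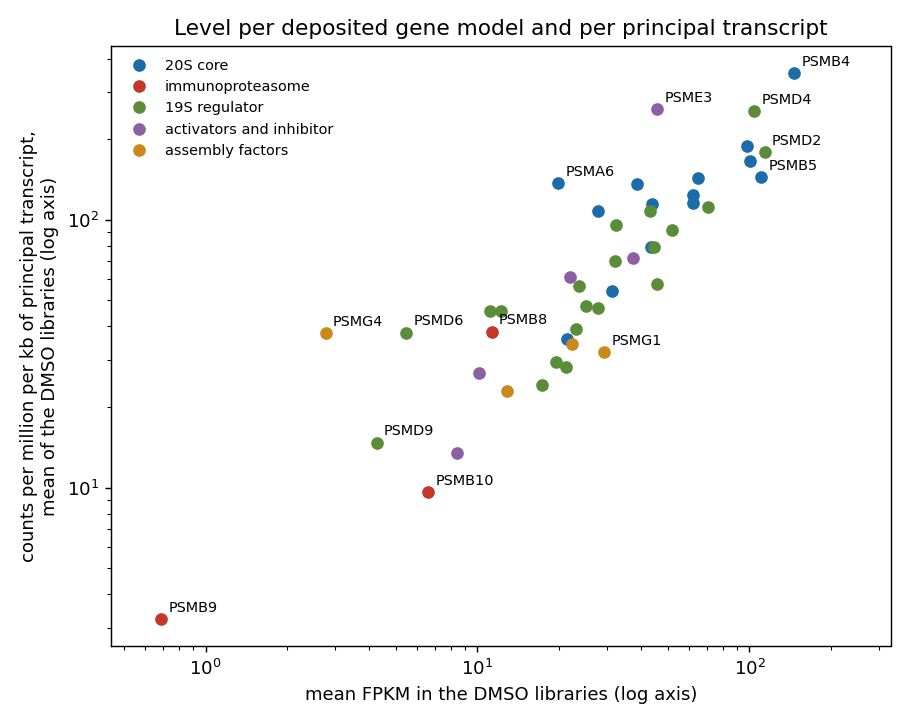
Mean level of each tested proteasome gene in the DMSO libraries, as FPKM (x axis, log) and as library-scaled counts (CPM) per kilobase of principal transcript (y axis, log); each point is 1 gene, coloured by class. PSMG4 and PSMA6 lie above the main trend and PSMG1 below it: the implied length is 13.6 times the principal transcript for PSMG4, 6.93 times for PSMA6 and 1.09 times for PSMG1.

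No proteasome gene passed the test between GIA and DMSO. With edgeR's quasi-likelihood test, 0 of 46 tested genes had a Benjamini-Hochberg adjusted p under 0.05, against 0 of 13721 over all genes (0%), and 0 by DESeq2 and by limma. At an unadjusted p under 0.05 there were 3 of 46 genes, by each of edgeR, DESeq2 and limma, against 4.59% of all genes tested by edgeR. Leaving out GIA library 1 raised the edgeR counts to 5 proteasome genes and 1407 of all genes, against 630 with all libraries, and leaving out DMSO library 2 or 3 gave 2 proteasome genes, with 406 or 513 of all genes. By edgeR they were PSMB10, PSMG1 and PSMB7, and the value was lower with GIA in each, where 1.95% of all genes were. No proteasome gene was at an unadjusted p under 0.05 and higher, against 2.65% of all genes. Small values below 0 were frequent: 37 of 46 log2 fold changes (80.4%) were negative, against 49.8% of all genes. Their median was -0.03, against 0.00038 for all genes. Because the 46 genes were measured in the same 6 libraries, these values are not independent of each other. The FPKM ranges of the groups did not overlap for 9 of 46 genes (19.6%), against 11.2% of all genes. Of these, 8 were lower with GIA, where 5.6% of all genes were, and PSMB9 was higher. Fewer cells that express a gene and less RNA per cell cannot be told apart in bulk libraries.

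The intervals were narrow for most of these genes. For 44 of 46 the 95% interval lay within 1.2-fold either way, against 55.9% of all genes. The same 44 were the ones within 1.5-fold, against 83% of all genes. The exceptions were PSMB9 and PSMB10. The coefficient of variation over the 3 libraries of a group had a median of 3.32% with GIA and 2.46% with DMSO.

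**Figure D3:**
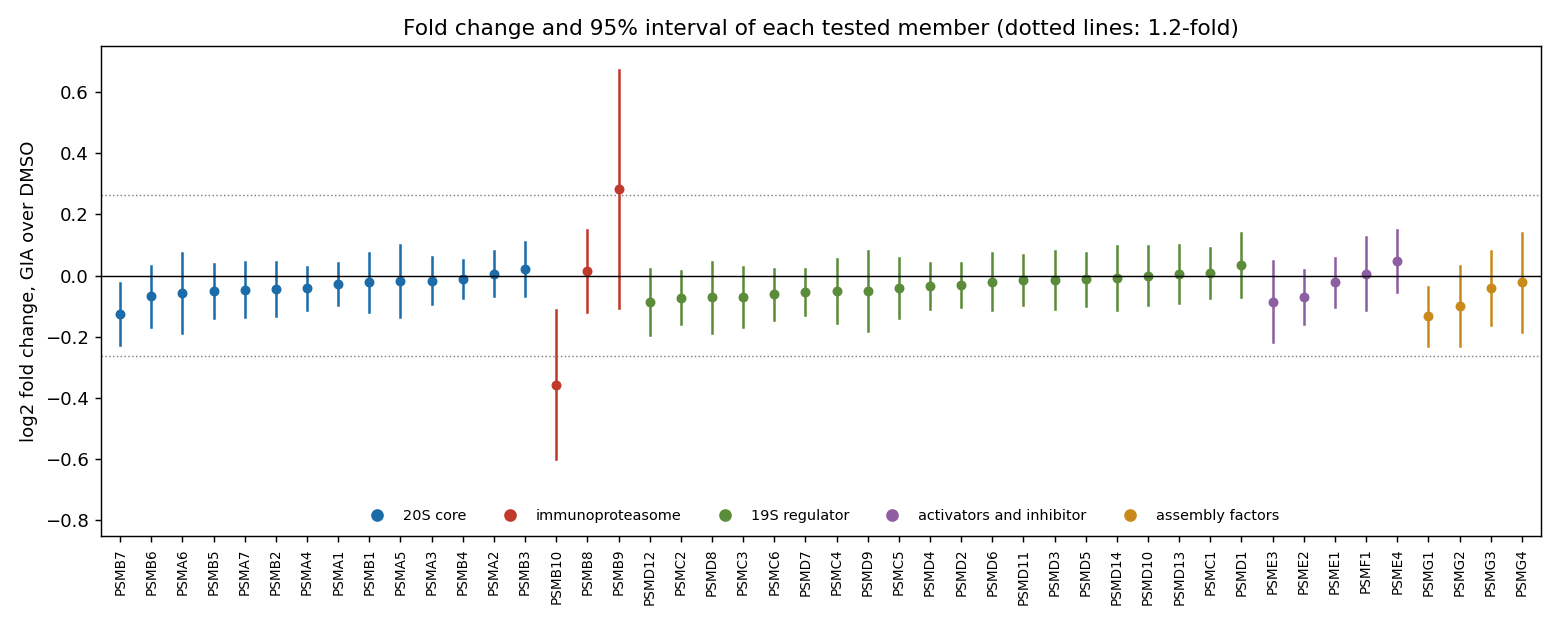
Log2 fold change of GIA over DMSO (y axis) with its 95% interval (bars) for the 46 tested proteasome genes, coloured by class; dotted lines mark 1.2-fold either way. Values run from -0.36 (PSMB10) to 0.28 (PSMB9), and only the intervals of PSMB7, PSMB10 and PSMG1 leave out 0.

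Summed over all 47 genes, proteasome transcripts took 0.683%, 0.673% and 0.683% of all FPKM in GIA libraries 1 to 3 and 0.693%, 0.702% and 0.700% in DMSO libraries 1 to 3. All 3 GIA libraries lay below all 3 DMSO libraries, with means of 0.680 ± 0.00569% with GIA and 0.698 ± 0.00481% with DMSO (SD, n = 3 each) and a difference of -0.0185 percentage points. As a share of estimated counts the values were 0.641%, 0.622% and 0.642% with GIA and 0.646%, 0.654% and 0.649% with DMSO, and again did not overlap. The mean log2 level over the 46 tested genes, relative to the mean of the 6 libraries, was -0.0063, -0.05 and -0.00075 in GIA libraries 1 to 3 and 0.01, 0.03 and 0.0100 in DMSO libraries 1 to 3. GIA library 2 was lowest, with 35 of 46 genes below their 6-library mean, against 23 and 21 in GIA libraries 1 and 3 and 9 to 17 in the DMSO libraries. The same library had the highest DCN (16.0 FPKM, against 11.2 to 13.1 in the other 5) and the lowest KRT18 (219 FPKM, against 255 to 274), and the part of these in the result was not tested. Without GIA library 2 the median log2 fold change of the 46 genes was -0.03 and that of the 20S core -0.02, against -0.04 with all libraries.

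**Figure D4:**
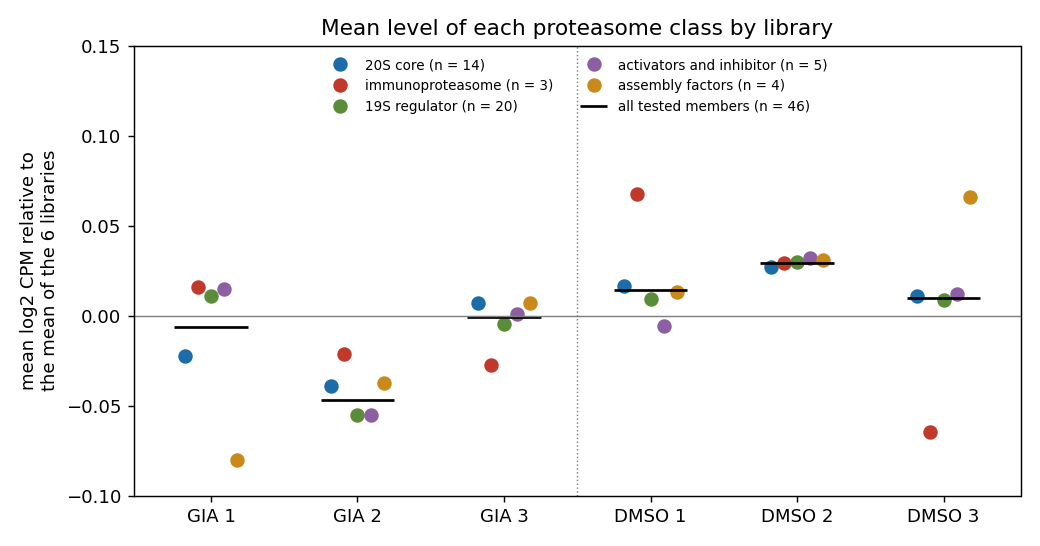
Mean log2 CPM of each proteasome class relative to the mean of the 6 libraries (y axis), by library; points are classes and black lines the mean of all 46 tested genes. The black line is lowest in GIA library 2 (-0.05) and highest in DMSO library 2 (0.03), and the 3-gene immunoproteasome class varies most between DMSO libraries, from -0.06 to 0.07.

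In the 20S core, 12 of 14 tested genes had a negative log2 fold change, against 49.8% of all genes. The median was -0.04 and the range -0.13 to 0.02. The lowest was PSMB7, the trypsin-like catalytic subunit, with 55.0, 55.9 and 59.7 FPKM with GIA and 60.1, 62.0 and 63.8 with DMSO. The ranges did not overlap, though GIA library 3 and DMSO library 1 were nearly level. The fitted log2 fold change of PSMB7 was -0.13, with an SE of 0.04, a 95% interval from -0.23 to -0.03, an unadjusted p of 0.0191 and an adjusted p of 0.875 by edgeR. PSMB6, the caspase-like subunit, had 58.6, 57.2 and 62.1 FPKM with GIA and 63.9, 61.9 and 60.5 with DMSO, which overlapped, and a log2 fold change of -0.07 (SE 0.04). PSMB5 had -0.05 (SE 0.04). All 3 constitutive catalytic subunits thus had negative values, of which none passed. Among the alpha subunits, PSMA4 had separate ranges but a log2 fold change of only -0.04 (SE 0.03): 30.3, 30.2 and 30.4 FPKM with GIA and 31.2, 31.5 and 30.7 with DMSO. PSMB3 and PSMA2 were the 2 core genes with positive values, 0.02 (SE 0.04) and 0.0054 (SE 0.03), and each turned negative without 1 DMSO library (library 3 for PSMB3, library 2 for PSMA2).

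In the 19S regulator, 17 of 20 genes had a negative log2 fold change, against 49.8% of all genes. The median was -0.03 and the range -0.09 to 0.03. The value furthest from 0 was that of the lid subunit PSMD12, which had 21.0, 18.9 and 20.3 FPKM with GIA and 20.8, 21.1 and 21.8 with DMSO. GIA library 1 lay inside the DMSO range, and the log2 fold change was -0.09 (SE 0.05, adjusted p = 0.875 by edgeR). Leaving out GIA library 2 gave -0.04 for PSMD12, nearer to 0 than PSMD1 (0.06), PSMC2 (-0.06) or PSMC6 (-0.06) in that fit. Ranges did not overlap for 3 of 20 genes (15%), near the 11.2% of all genes, and the 3 were lower with GIA, where 5.6% of all genes were. The ATPase PSMC3 had 68.8, 63.7 and 69.6 FPKM with GIA and 70.4, 70.4 and 71.3 with DMSO, with GIA library 2 well below the rest. PSMC6 averaged 11.7 ± 0.231 FPKM with GIA and 12.2 ± 0.311 with DMSO, and the highest GIA and lowest DMSO libraries, at 11.97 and 12.0002, were almost equal. PSMD7, a lid subunit that pairs with the deubiquitinase PSMD14, had 43.6, 42.7 and 43.1 FPKM with GIA and 45.3, 44.3 and 44.5 with DMSO. PSMD14 itself had a log2 fold change of -0.0073 (SE 0.05). The 6 ATPases had a median of -0.06, the 8 lid genes -0.02 and the 3 chaperones of base assembly (PSMD5, PSMD9 and PSMD10) -0.01. PSMD1, a scaffold subunit, had a log2 fold change of 0.03 (SE 0.05), and leaving out GIA library 1 gave 0.0057, DMSO library 1 0.01, DMSO library 3 0.02, GIA library 2 0.06 and DMSO library 2 0.07.

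Of all proteasome genes, the inducible catalytic subunits PSMB10 and PSMB9 had the log2 fold changes furthest from 0, one negative and one positive, by edgeR, and neither passed the test. PSMB10, which replaces PSMB7, had 5.33, 4.71 and 5.40 FPKM in the GIA libraries and 7.19, 6.48 and 6.08 in the DMSO libraries. Each GIA library lay below each DMSO library. The fitted log2 fold change of PSMB10 was -0.36, with an SE of 0.11, a 95% interval from -0.60 to -0.11, a percent change of -21.9%, an unadjusted p of 0.00910 and an adjusted p of 0.875 by edgeR. PSMB9, which replaces PSMB6, was at the bottom of the tested genes, with 0.910, 0.850 and 0.754 FPKM with GIA and 0.722, 0.711 and 0.626 with DMSO. Here each GIA library lay above each DMSO library, and the log2 fold change was 0.28 (SE 0.17, interval -0.11 to 0.67, unadjusted p = 0.134 and adjusted p = 0.875 by edgeR) on 181 to 227 estimated counts with GIA and 147 to 149 with DMSO. By limma the value for PSMB9 was 0.17 with 0.5 added to FPKM and 0.12 with 1 added, where PSMG1 (-0.13) was further from 0. An added constant understates the change of a low gene. PSMB8, which replaces PSMB5, had 10.53, 12.28 and 11.43 FPKM with GIA and 11.04, 11.39 and 11.44 with DMSO. The GIA libraries lay on both sides of the DMSO libraries, with a log2 fold change of 0.01 (SE 0.06), and leaving out GIA library 2 gave -0.04, leaving out DMSO library 1 gave -0.0015 and leaving out GIA library 1 gave 0.07.

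Inducible subunits stood well below their constitutive counterparts in both groups. By FPKM, PSMB8 was 10.7 ± 0.934% of PSMB5 with GIA and 10.2 ± 0.259% with DMSO (SD, n = 3 each). PSMB9 was 1.42 ± 0.178% of PSMB6 with GIA and 1.11 ± 0.0612% with DMSO, and its values in GIA libraries (1.55%, 1.49% and 1.21%) were all above those in DMSO libraries (1.13%, 1.15% and 1.04%). PSMB10 was 9.05 ± 0.632% of PSMB7 with GIA and 10.7 ± 1.23% with DMSO, and these overlapped, since GIA library 1 (9.68%) exceeded DMSO library 3 (9.54%). The log2 ratios differed, GIA minus DMSO, by 0.06 for PSMB8, 0.35 for PSMB9 and -0.23 for PSMB10, with two-sided exact permutation p of 0.5, 0.1 and 0.2, where 0.1 is the smallest that 3 against 3 libraries allow. Adjusted over the 3 ratios these were 0.5, 0.3 and 0.3. The absolute ratios depend on gene length: per principal transcript PSMB8 was 27.7 ± 2.41% of PSMB5 with GIA and 26.5 ± 0.668% with DMSO, PSMB9 was 3.59 ± 0.438% of PSMB6 with GIA and 2.80 ± 0.153% with DMSO, and PSMB10 was 6.64 ± 0.468% of PSMB7 with GIA and 7.81 ± 0.897% with DMSO. Leaving out GIA library 2 made the log2 difference for PSMB8 0.0087, and leaving out GIA library 1 made it 0.13. For PSMB10 it became -0.14 when DMSO library 1 was left out.

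**Figure D5:**
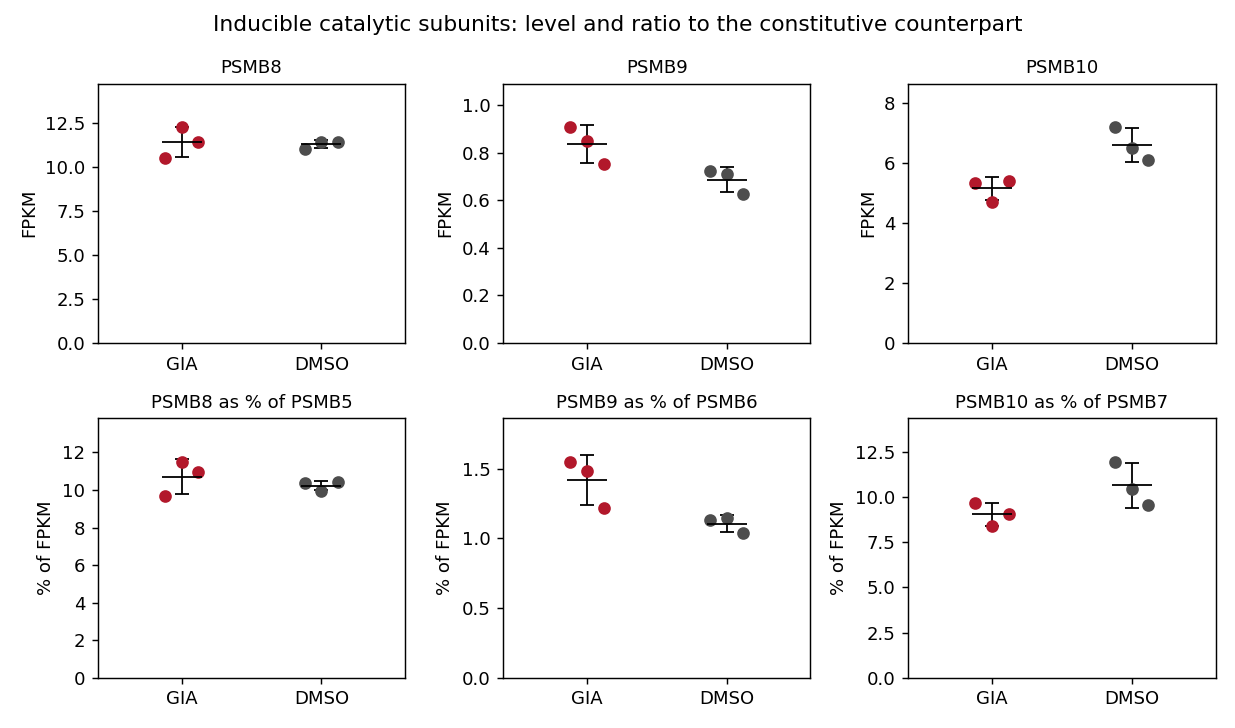
Top: FPKM of the inducible catalytic subunits PSMB8, PSMB9 and PSMB10 per library; bottom: the same as a percentage of the FPKM of PSMB5, PSMB6 and PSMB7; points are libraries, horizontal lines means and bars SD over 3 libraries, GIA left and DMSO right. PSMB10 is lower (5.15 against 6.58 FPKM) and PSMB9 higher (0.838 against 0.687) in the GIA libraries with no overlap, while PSMB8 overlaps.

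The gene models of these subunits overlap others, which limits how far a value belongs to 1 gene. In the files' coordinates (GRCh38), PSMB8 (chromosome 6, 32840717 to 32844679, minus strand) and PSMB9 (chromosome 6, 32844136 to 32859851, plus strand) share 544 bases on opposite strands, and the PSMB9 model overlaps 8770 bases of TAP1, a peptide transporter gene on the other strand that averaged 14.8 ± 0.344 FPKM with GIA and 15.3 ± 0.569 with DMSO. No annotated exon of PSMB9 overlapped one of TAP1 in GENCODE release 29, while 174 exonic bases are shared with PSMB8-AS1 on the same strand, a row averaging 0.513 FPKM. A further overlap of 139 exonic bases is with PSMB8 on the opposite strand, a row averaging 11.4 FPKM. The libraries were strand-specific, but no source used here says whether counting used the strand. PSMB10 (chromosome 16, 67934506 to 67936850, minus strand) shares 644 exonic bases with AC040162, a model on the same strand. AC040162 had 0.906, 0.897 and 0.689 FPKM with GIA and 0.662, 0.924 and 1.00 with DMSO. In each group PSMB10 was highest in the library where AC040162 was lowest. With the counts of PSMB10 and AC040162 summed, the log2 fold change was -0.26 (SE 0.08, unadjusted p = 0.00896, adjusted p = 0.875 by edgeR), against -0.36 (SE 0.11) for PSMB10 alone. How reads were divided between the 2 models was not tested. PSMA6 likewise shares 919 exonic bases with AL121594, also on the same strand. AL121594 had 8.92, 5.21 and 6.82 FPKM with GIA and 7.55, 10.1 and 2.13 with DMSO, so that in each group PSMA6 was highest in the library where AL121594 was lowest. The summed counts gave a log2 fold change of -0.03 (SE 0.05), against -0.06 (SE 0.06) for PSMA6 alone. In all, 26 of 47 models were overlapped by another row, and 13 by a row averaging at least 1 FPKM. On the opposite strand, PSMC5 (31.9 FPKM) shares 874 exonic bases with FTSJ3, a row averaging 24.9 FPKM. PSMC1 (19.5 FPKM) shares 4671 of its 6161 exonic bases with NRDE2, averaging 1.31 FPKM. The pseudogene PSMC1P1 averaged 3.20 FPKM. How reads were divided in these cases was not tested.

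The promoter windows of the inducible subunits and of PSMG1, the assembly factor furthest from 0, are shown because PSMB10, PSMB9 and PSMG1 had the log2 fold changes furthest from 0 and PSMB8 completes the inducible set. Each runs 5′ to 3′ on the gene's strand, from 250 bases before to 50 bases after a RefSeq gene start (GRCh38.p14), with motif matches in capitals. PSMB8 has another window, with no match, that is not shown.
PSMB10, chr16:67936801-67937100, minus strand: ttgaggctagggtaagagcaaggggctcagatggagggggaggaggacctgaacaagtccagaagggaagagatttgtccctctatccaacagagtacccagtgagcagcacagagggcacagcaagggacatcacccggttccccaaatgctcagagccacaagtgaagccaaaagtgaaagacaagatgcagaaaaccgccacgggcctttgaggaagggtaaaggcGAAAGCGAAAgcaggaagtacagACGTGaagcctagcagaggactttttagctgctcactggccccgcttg
PSMB9, chr6:32853942-32854241, plus strand: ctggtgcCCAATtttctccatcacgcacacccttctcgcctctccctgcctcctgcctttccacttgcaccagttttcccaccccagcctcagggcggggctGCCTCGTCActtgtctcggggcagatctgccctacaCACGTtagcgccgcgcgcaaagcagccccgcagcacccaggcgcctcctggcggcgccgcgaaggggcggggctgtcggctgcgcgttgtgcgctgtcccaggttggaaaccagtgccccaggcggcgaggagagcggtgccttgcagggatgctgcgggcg
PSMB8, chr6:32843998-32844297, minus strand: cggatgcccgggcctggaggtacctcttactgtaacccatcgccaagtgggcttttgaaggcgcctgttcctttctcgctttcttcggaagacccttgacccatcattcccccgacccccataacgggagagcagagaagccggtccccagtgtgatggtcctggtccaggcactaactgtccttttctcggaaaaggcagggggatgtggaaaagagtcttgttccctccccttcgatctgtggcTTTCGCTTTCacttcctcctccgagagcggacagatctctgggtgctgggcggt
PSMG1, chr21:39183402-39183701, minus strand: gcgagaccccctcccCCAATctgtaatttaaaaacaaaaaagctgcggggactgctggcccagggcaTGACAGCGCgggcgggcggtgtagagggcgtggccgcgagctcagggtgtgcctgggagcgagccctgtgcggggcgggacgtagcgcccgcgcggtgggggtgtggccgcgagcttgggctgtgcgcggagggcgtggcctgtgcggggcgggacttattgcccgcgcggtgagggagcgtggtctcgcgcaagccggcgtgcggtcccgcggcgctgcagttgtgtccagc
The motifs were searched on both strands. The core of the interferon-stimulated response element (GAAA, 2 bases of any kind, GAAA) was in the PSMB10 window and, in reverse, in the PSMB8 window. The core of the antioxidant response element (TGACNNNGC), the kind of site that NFE2L1 binds, was in the PSMG1 window and, in reverse, in the PSMB9 window. The core of the hypoxia response element (ACGTG) was in the PSMB10 window and, in reverse, in the PSMB9 window, and a CCAAT box (CCAAT) was in the PSMB9 and PSMG1 windows. A match is a stretch of letters and not a bound site.

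Over the 41 proteasome genes with a RefSeq window (50 windows in all), the antioxidant response core was in 15 windows (30%), against 13.3% of 35116 windows of the same length across the genome. The interferon core was in 7 windows (14%), against 3.57%, the genes being PSMA4, PSMB4, PSMB8, PSMB10, PSME1, PSME2 and PSMG4. The hypoxia core was in 10 windows (20%), against 21.4%, and the CCAAT box in 20 (40%), against 34.6%. These motifs can overlap in a window. The genes with the antioxidant core included the core subunits PSMA4 and PSMB3, the ATPases PSMC4 and PSMC5, PSMD1, PSMD3 and PSMD12 of the regulator, and the assembly factors PSMG1 and PSMG2.

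All 4 assembly factors had a negative log2 fold change, against 49.8% of all genes, with a median of -0.07. Ranges did not overlap for 2 of the 4, against 11.2% of all genes. These 2 were lower with GIA, where 5.6% of all genes were. PSMG1, which pairs with PSMG2 to build the alpha ring, had 27.1, 25.7 and 27.4 FPKM with GIA and 29.9, 29.2 and 28.9 with DMSO. Each GIA library lay below each DMSO library. The fitted log2 fold change of PSMG1 was -0.13, with an SE of 0.04, a 95% interval from -0.23 to -0.04, an unadjusted p of 0.0122 and an adjusted p of 0.875 by edgeR. PSMG2 had 11.5, 12.3 and 12.1 FPKM with GIA and 12.4, 12.4 and 13.6 with DMSO, separate by a narrow margin, with a log2 fold change of -0.10 (SE 0.06). PSMG3 and PSMG4 form the other chaperone pair. PSMG3 had 20.8, 21.6 and 22.5 FPKM with GIA and 22.5, 21.0 and 23.2 with DMSO, and PSMG4 had 2.55, 2.83 and 2.81 with GIA and 2.58, 2.96 and 2.77 with DMSO. Both overlapped between groups, with log2 fold changes of -0.04 (SE 0.05) and -0.02 (SE 0.07). Leaving out GIA library 1 or DMSO library 3 brought the median of the 4 to -0.04. PSMG2 shares 468 exonic bases with CEP76 on the opposite strand.

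Among the activators and the inhibitor, 3 of 5 genes had a negative value, against 49.8% of all genes, and no ranges were separate. PSME3, which forms the nuclear 11S activator, had 45.9, 39.1 and 44.4 FPKM with GIA and 45.6, 45.9 and 45.6 with DMSO. GIA library 2 alone lay far below the others, and the log2 fold change was -0.08 (SE 0.06, adjusted p = 0.875 by edgeR), or -0.01 without that library. The interferon-inducible pair PSME1 and PSME2, both on chromosome 14, had log2 fold changes of -0.02 (SE 0.04) and -0.07 (SE 0.04). PSME2 had 20.4, 21.2 and 21.0 FPKM with GIA and 21.1, 21.8 and 22.7 with DMSO, overlapping at GIA library 2. PSME4, the PA200 activator, had 8.35, 8.96 and 8.89 FPKM with GIA and 8.29, 8.83 and 8.20 with DMSO, a log2 fold change of 0.05 (SE 0.04). PSMF1 had 10.9, 9.52 and 10.1 FPKM with GIA and 9.98, 10.3 and 10.1 with DMSO, a log2 fold change of 0.0059 (SE 0.05), and leaving out GIA library 1 gave -0.05, leaving out DMSO library 1 gave -0.0049 and leaving out GIA library 2 gave 0.06.

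Genes that work with the proteasome did not pass the test either. At an unadjusted p under 0.05 by edgeR, the share over all genes tested was 4.59%, to set beside each list below. Of 15 partners and control genes, 0 were called and 0 had an unadjusted p under 0.05 by edgeR, with 7 positive and 8 negative log2 fold changes and a median of -0.0044. NFE2L1 averaged 47.7 ± 1.68 FPKM with GIA and 46.8 ± 0.446 with DMSO, a log2 fold change of 0.02 (SE 0.04). The core assembly chaperone POMP averaged 48.6 ± 1.36 FPKM with GIA and 48.4 ± 1.57 with DMSO, a log2 fold change of 0.0046 (SE 0.04). UCHL5, a deubiquitinase of the regulator, averaged 24.6 ± 0.284 FPKM with GIA and 25.9 ± 0.576 with DMSO with separate ranges, a log2 fold change of -0.08 (SE 0.03). ZFAND5, which binds ubiquitin and the proteasome, also had separate ranges but was higher, at 19.8 ± 0.110 FPKM with GIA and 19.1 ± 0.625 with DMSO, a log2 fold change of 0.05 (SE 0.04). These were 2 of 15 genes, where 11.2% of all genes had separate ranges. For UCHL5's partner ADRM1, the ubiquitin receptor that recruits it, the value was -0.10 (SE 0.06). Of 12 ubiquitin and shuttle genes 9 were negative, against 49.8% of all genes, with a median of -0.02. In this list 0 were called and 0 had an unadjusted p under 0.05 by edgeR. The polyubiquitin gene UBB had a log2 fold change of -0.06 (SE 0.04). Of 6 genes of peptide transport and immunoproteasome control 0 were called and 0 had an unadjusted p under 0.05 by edgeR, with 3 negative and a median of -0.0083. TAP1 and TAP2 had -0.05 (SE 0.04) and -0.08 (SE 0.05). TAPBP, which links the transporter to class I molecules, averaged 21.6 ± 0.378 FPKM with GIA and 20.5 ± 0.693 with DMSO, a log2 fold change of 0.07 (SE 0.04). It was the 1 gene of the 6 with separate ranges, against 11.2% of all genes. The interferon-responsive factor IRF1 had 0.11 (SE 0.09), and NLRC5, a driver of class I antigen presentation genes, had -0.06 (SE 0.05).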

How the data were processed

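RNA-seq was deposited as 1 table of genes by 6 libraries, holding estimated counts and FPKM for each library, as named per the file headers. The submitters' processing notes name StringTie 2.1.6, HISAT2 2.2.1, DESeq2 1.22.2, cutadapt and FastQC 0.10.1, with neither role nor order, and the build GRCh38. No source used here gives the annotation release or the use of strand in counting. The estimated counts deposited by the authors are whole numbers that look derived from coverage: 6798 values equal 4, against 4183 equal to 3 and 2499 equal to 5. Count over FPKM was constant between libraries within 0.221% (99th percentile) over 10002 genes, so both carry the same measurement.

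The test, GIA over DMSO, took the 13721 genes whose FPKM averaged 0.5 or more across libraries, with edgeR 4.0.16 (R 4.3.3), TMM scaling, the quasi-likelihood test and Benjamini-Hochberg adjustment over all of them, at a threshold of 0.05. Of the steps described here, only this edgeR test was tried on simulated counts. Alternatives were DESeq2 1.42.0, limma 3.58.1 on log2(FPKM + 0.5), other scaling and filters, a replicate block and each library left out. Summed overlapping models and shares of all FPKM were added after seeing the data. The median log2 fold change over all tested proteasome genes was not planned either. Ratios of subunits were compared with exact permutation tests (scipy 1.17.1). The members and gene lists were chosen with earlier results of these data known. Library values were given by rule for the catalytic pairs, the assembly factors, the highest and lowest 2 genes of the core and the regulator, the furthest from 0 in each class and those with an unadjusted p under 0.05; other genes were named after their values were seen. Promoter windows come from RefSeq and were found for 41 of 47 genes.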

Additional observations from a re-analysis of the deposited data

How the results depend on the processing

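No proteasome gene was called in any of the settings run, including the 6 that each left out 1 library, and the smallest adjusted p of a proteasome gene in them was 0.469. Over all genes, edgeR called 0, against 3 with the replicate block and 0 to 5 when a library was left out. Whether replicate numbers pair the libraries is not labelled. Libraries of the same number had correlations of 0.04, -0.03 and 0.10 across groups, against -0.13 to 0.08 for the other pairs. With 3 libraries a group these values cannot settle pairing. The block called 0 proteasome genes. With a library left out, the median log2 fold change was -0.05 to -0.02 for the 20S core (-0.0452 to -0.0159) and -0.0364 to 0.0663 for the immunoproteasome, where it was -0.16 at a mean FPKM of at least 5, a filter that removes PSMB9. Of 643 values for single genes, 35 changed sign, in 16 genes whose log2 fold change was at most 0.0497 in size; the cause was not tested. PSMD10 (-0.00072) was 0.0016 by limma with 0.5, 0.0017 with 0.1 and 0.0016 with 1 added to FPKM, and 0.0086 at a mean FPKM of at least 5, where PSMD14 was 0.0017. With a library left out the log2 fold changes were -0.0073 to 0.0149 (PSMA2), -0.0665 to 0.0288 (PSMA5), -0.0444 to 0.0071 (PSMB1), -0.0033 to 0.0474 (PSMB3), -0.0364 to 0.0663 (PSMB8), -0.0080 to 0.0247 (PSMC1), -0.0270 to 0.0214 (PSMD10), -0.0312 to 0.0132 (PSMD11), -0.0187 to 0.0330 (PSMD13), -0.0378 to 0.0303 (PSMD14), -0.0488 to 0.0238 (PSMD3), -0.0347 to 0.0032 (PSMD5), -0.0310 to 0.0010 (PSMD6), -0.0812 to 0.00062 (PSMD9), -0.0478 to 0.0563 (PSMF1) and -0.0704 to 0.0310 (PSMG4). With 3 libraries a group, the widest interval, that of PSMB9 on 147 to 227 estimated counts, allowed up to a 1.59-fold difference.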
